A study of Mus musculus with 27 samples.

Results

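The genes described here encode the microtubule-associated protein tau (Mapt) and 9 kinases or kinase activators that act on it: Gsk3a, Gsk3b, Cdk5, Cdk5r1, Mark1, Mark2, Mark4, Ttbk1 and Dyrk1a. They were chosen by symbol from GENCODE M21, and all 10 were found among the 55487 genes of the count table and all 10 were among the 20271 genes tested. Tau binds microtubules, mostly in axons, and its affinity for them falls when it is phosphorylated. GSK3 and the complex of CDK5 with its activator p35 phosphorylate tau on serines and threonines that precede a proline, whereas MARK kinases phosphorylate its microtubule-binding repeats. Hyperphosphorylated tau that leaves the axon and aggregates is the hallmark of tauopathies. Autoantibodies (AABs) to the neuronal surface protein IgLON5 are found in patients with a brain disease that includes tau pathology, and the comparison asks what an infusion of such AABs did to the transcripts of tau and its kinases.

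RNA sequencing was performed on the contralateral cortex (14 libraries) and contralateral hippocampus (13 libraries) of 14 male wild-type C57Bl/6J mice. Infusion into the right lateral ventricle from an osmotic pump started at 8 weeks of age and ran for 14 days at 0.25 μl per hour. Cortex libraries came from 5 PBS, 5 mIgG and 4 IgLON5 mice, and hippocampus libraries from 5 PBS, 4 mIgG and 4 IgLON5 mice. The IgLON5 mice received α-IgLON5 AABs, which the study's methods describe as a polyclonal pool purified from patient plasma, the mIgG mice received a human control IgG, and the PBS mice received the buffer alone. No transgene or deletion was present in any group. The labels call the control IgG a nonreactive human monoclonal antibody, whereas the methods of the study describe IgG of a healthy donor for the mouse experiment, so the nature of the control is not settled here. The labels give the cell type as neurons, but markers of astrocytes, microglia and oligodendrocytes were detected in every group, so the libraries are of whole tissue. In such tissue, fewer cells of a type and less RNA per cell cannot be told apart.

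Library totals ran from 19385642 to 58550621 counts, and no pair of libraries of a group repeated each other. The IgLON5 hippocampi (19428512 to 32776892 counts) were all below the mIgG hippocampi (39479753 to 52212204 counts). Depth and treatment cannot be told apart in that comparison. PBS hippocampi ran from 29098828 to 58550621 counts, and the IgLON5 and mIgG cortices overlapped in depth. Mice are named by the number in their library titles. The IgLON5 mice were 8, 9, 16 and 17, the mIgG mice 10, 11, 15, 37 and 75, and the PBS mice 14, 32, 33, 38 and 74. Mouse number thus went partly with treatment, above all against PBS, and the labels do not say what it stands for. A fit limited to mice 8 to 17 was made for IgLON5 against mIgG alone. In PBS mice, 5 of 5 hippocampal markers were lower in cortex and 5 of 6 cortical markers were higher, while the other, Scnn1a, was lower (-0.82, edgeR adjusted p = 1.73e-07). A tissue composition score, the mean log2 level of 100 cortex-high genes minus that of 100 hippocampus-high genes chosen from PBS mice without the members, was higher in 2 of the mIgG hippocampi than in any other hippocampus. These were mouse 10 (0.18) and mouse 37 (0.87), whereas mIgG mice 15 and 75 were at -0.81 and -0.71, PBS hippocampi at -1.67 to -0.87 and IgLON5 hippocampi at -1.69 to -0.71. Every comparison with mIgG hippocampi rests in part on these 2 libraries.

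Among the members, Mapt (ENSMUSG00000018411.17) lies at chr11:104231390-104332090 on the plus strand of GRCm38, with 7531 exonic bases in 16 blocks. The GSK3 paralogs, which share their substrates in large part, are Gsk3a (ENSMUSG00000057177.12) at chr7:25228258-25237851 on the minus strand and Gsk3b (ENSMUSG00000022812.14) at chr16:38089001-38246084 on the plus strand. Of the 2900 exonic bases of Gsk3a, 820 overlap the antisense gene 9130221H12Rik. The proline-directed kinase Cdk5 (ENSMUSG00000028969.10) is at chr5:24418241-24423530 on the minus strand, and Cdk5r1 (ENSMUSG00000048895.13), which encodes p35, is a single exon at chr11:80477023-80481184 on the plus strand. The MARK genes are Mark1 (ENSMUSG00000026620.11) at chr1:184896789-184999570, Mark2 (ENSMUSG00000024969.15) at chr19:7275396-7341860 and Mark4 (ENSMUSG00000030397.11) at chr7:19424775-19458821, all on the minus strand. Ttbk1 (ENSMUSG00000015599.9), a neuronal tau kinase, is at chr17:46442448-46487675 on the minus strand and shares 137 of its 14097 exonic bases with the antisense gene Gm47119. Dyrk1a (ENSMUSG00000022897.15), a kinase that primes tau for GSK3, is at chr16:94570010-94695517 on the plus strand. The strand setting of the counting is not given in the sources used here, so the antisense share in Gsk3a and Ttbk1 counts is uncertain.

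The promoters of the GSK3 paralogs are shown because Gsk3b, and not Gsk3a, was called in the hippocampal comparison described below. The paralogs were not tested against each other, and the part of the promoters in that call was not tested. RefSeq promoter entries on GRCm38.p6 matched 6 of the 10 members with 10 start sites (Gsk3a, Gsk3b, Mark1, Mark2, Ttbk1 and Dyrk1a). Each sequence is the 250 bases before the start, 5′ to 3′ on the gene's strand, and capitals mark CCAAT on either strand.
Gsk3b, chr16:38088751-38089000, plus strand: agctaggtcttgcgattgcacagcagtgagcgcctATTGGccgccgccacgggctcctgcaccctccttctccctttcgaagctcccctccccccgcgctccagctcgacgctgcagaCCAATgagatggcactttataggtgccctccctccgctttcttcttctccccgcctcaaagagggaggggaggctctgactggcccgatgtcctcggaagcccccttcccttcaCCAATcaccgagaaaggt
Gsk3a, chr7:25237852-25238101, minus strand: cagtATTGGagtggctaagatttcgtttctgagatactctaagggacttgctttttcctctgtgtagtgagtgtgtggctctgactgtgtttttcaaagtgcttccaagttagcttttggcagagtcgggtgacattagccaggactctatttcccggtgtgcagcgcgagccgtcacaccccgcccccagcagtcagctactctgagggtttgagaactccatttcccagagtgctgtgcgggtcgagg
The Gsk3b window held 3 CCAAT matches on both strands together and no match to the GC box GGGCGG, whereas the Gsk3a window held 1 of each kind. Of the 32851 promoter windows of the same length, 33.8% held CCAAT and 32.7% held the GC box, both strands searched. CCAAT was in 3 of the 10 windows of members. By member, CCAAT was found for 3 of the 6 and the GC box for 5 of the 6. The background counts windows, and a member can have several. These matches describe letters, not binding.

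All members were well expressed. In CPM, the counts of a gene scaled to the size of its library, per exonic kilobase (RPKM), averaged over all libraries, Mapt was above 97.9% of tested genes and Dyrk1a, the lowest member, above 78.3%. In PBS hippocampi the level fell in the order Mapt (67.2 ± 2.88 RPKM, SD, n = 5), Cdk5r1 (57.8 ± 2.48), Gsk3a (38.2 ± 0.709), Cdk5 (35.9 ± 1.77), Gsk3b (24.4 ± 1.98), Mark4 (22.3 ± 1.65), Mark1 (17.6 ± 0.348), Mark2 (12.9 ± 0.373), Ttbk1 (12.2 ± 0.383) and Dyrk1a (10.9 ± 0.290). Within that order the neighbours Gsk3a and Cdk5, Gsk3b and Mark4, and Mark2 and Ttbk1 had overlapping ranges of mean ± SD. In PBS cortex Mapt (80.2 ± 5.53 RPKM, n = 5) and Cdk5r1 (78.3 ± 6.83) overlapped at the top, and Mark1 (25.8 ± 2.64) stood above Mark4 (21.7 ± 1.31), the reverse of the hippocampal order.

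**Figure D1:**
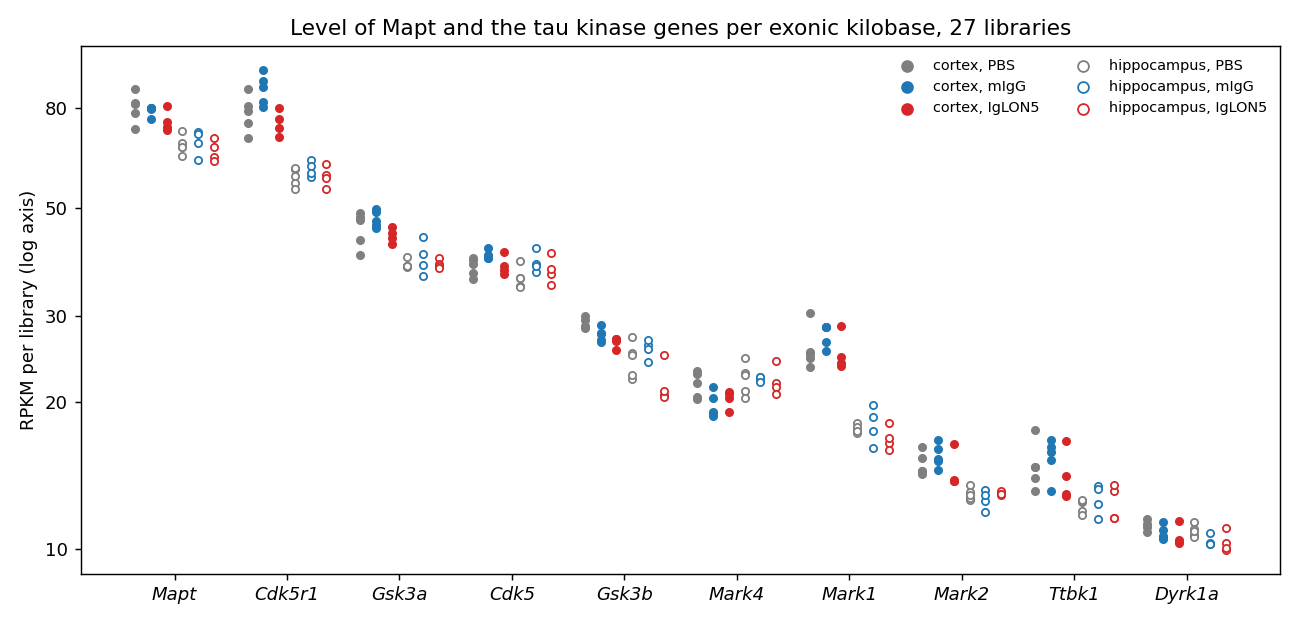
RPKM of each member in each of the 27 libraries on a log axis, with cortex as filled and hippocampus as open points and the treatments in color. Mapt and Cdk5r1 lie highest and Dyrk1a lowest in both tissues, and for Mark1 the cortical points lie above the hippocampal points.

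The members varied little between libraries. Across all 27 libraries the highest CPM was 1.15 times the lowest for Dyrk1a, 1.76 times for Cdk5r1 and 1.90 times for Mark1. Counts per library were in the range of 8472 to 30545 for Mapt and no lower than 1233 for any member. Counting error alone gave a coefficient of variation of 0.655% to 2.39% over the 60 combinations of a member and a group, whereas the libraries varied by 0.884% to 12.5% (median 4.94%). In 3 combinations (Cdk5 in mIgG cortex, Mark2 in IgLON5 hippocampus and Mark4 in mIgG hippocampus) the spread was at or below counting error.

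The largest differences among the members, those of Mark1 and Cdk5r1, were between tissues and not between treatments. For Cdk5, Mark4 and Dyrk1a a treatment estimate was larger in size than the difference between PBS tissues. In PBS mice, 7 of 10 members were higher in cortex than in hippocampus and none was lower, where 26.7% of all tested genes were called in either direction and 14.1% were called higher in cortex (edgeR quasi-likelihood test, Benjamini-Hochberg adjusted p under 0.05 over all tested genes). The median log2 fold change of the members was 0.25, against -0.01 over all genes. No member passed a fold of 2 in this comparison, a size that 5.57% of all genes reached with the call.

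Mark1, whose kinase detaches tau from microtubules, had the largest difference. It measured 132, 109, 110.2, 103 and 107 CPM in the cortices of PBS mice 14, 32, 33, 38 and 74, and 78.9, 75.7, 75.0, 77.3 and 76.0 CPM in their hippocampi. Every cortex was above every hippocampus, and the log2 fold change was 0.55 (SE 0.0639, 95% CI 0.42 to 0.68, adjusted p = 3.08e-07), or 46.6% higher.

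Cdk5r1, which encodes the activator that CDK5 needs, followed. Its PBS cortices measured 310.4, 337, 364, 288 and 329 CPM and its PBS hippocampi 233, 249.6, 227, 242 and 251 CPM, in the same order of mice. The groups did not overlap, and the log2 fold change was 0.44 (SE 0.0580, CI 0.32 to 0.56, adjusted p = 2.19e-06). Cdk5 itself was not called, at 0.08 (CI -0.01 to 0.17, adjusted p = 0.223).

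Mapt was higher in cortex by 19.4%. PBS cortices measured 658, 587, 613, 545 and 618 CPM, and PBS hippocampi 479.6, 501, 539, 510.0 and 501 CPM. The lowest cortex lay just above the highest hippocampus, and the log2 fold change was 0.26 (SE 0.0511, CI 0.15 to 0.36, adjusted p = 0.000383).

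The other members called were Ttbk1 (0.27, CI 0.11 to 0.43), Gsk3a (0.25, CI 0.14 to 0.35), Gsk3b (0.24, CI 0.13 to 0.36) and Mark2 (0.21, CI 0.10 to 0.31), with adjusted p values from 0.000518 to 0.00956. In each of the 7 called members the 5 cortices lay above the 5 hippocampi, where 17.8% of all genes had tissues that did not overlap in either direction. Mark4 (-0.04, CI -0.15 to 0.07) and Dyrk1a (0.03, CI -0.04 to 0.11) were not called. Neuronal marker genes moved with these members: 6 of 11 were higher and 1 (Gad1) was lower in PBS cortex, and their summed level was 7861 to 9989 CPM in PBS cortices and 7241 to 8071 CPM in PBS hippocampi. The part of neuronal content in the members' difference was not tested.

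The tissue difference was seen within mice. Libraries with the same number in their title were taken as the tissues of 1 mouse, which gave 13 mice with both tissues. Mapt, Gsk3a, Cdk5r1, Mark1 and Mark2 were higher in cortex in 13 of 13 mice, and Gsk3b, Ttbk1 and Dyrk1a in 12. Cdk5 was higher in cortex in 11 mice and Mark4 in only 3. The difference in log2 CPM ran from 0.41 to 0.74 for Mark1 (median 0.53), from 0.26 to 0.73 for Cdk5r1 (median 0.41) and from 0.10 to 0.46 for Mapt (median 0.21).

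**Figure D2:**
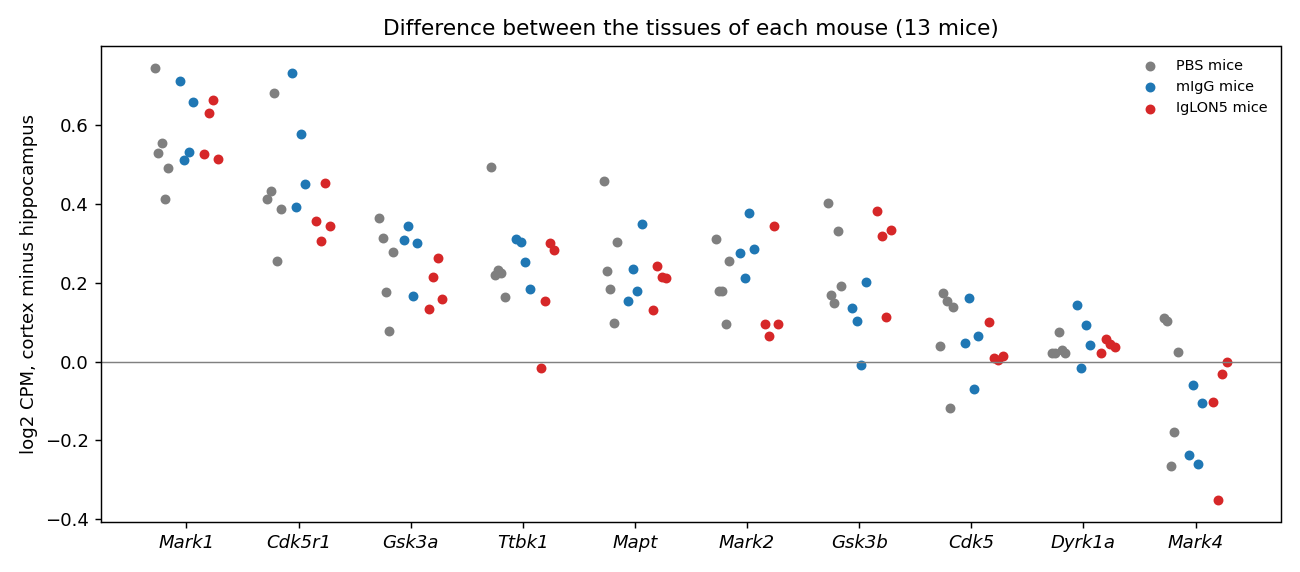
Difference in log2 CPM between cortex and hippocampus of each of the 13 mice for each member, in order of the median, with treatments in color. All points of Mark1, Cdk5r1, Gsk3a, Mapt and Mark2 lie above 0, and Mark4 lies below 0 in 10 of 13 mice.

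In mIgG mice 6 members were higher and 1 lower in cortex (background 19.9% in either direction, 10.7% higher and 9.23% lower), and in IgLON5 mice 6 were higher (background 23.9% in either direction and 12% higher). Mark1 (0.61 in mIgG and 0.58 in IgLON5 mice), Cdk5r1 (0.54 and 0.36), Mapt (0.21 and 0.20), Gsk3a (0.26 and 0.19) and Mark2 (0.30 and 0.15) were called in both. Gsk3b was called in IgLON5 mice (0.28, adjusted p = 0.000963) and not in mIgG mice (0.10, adjusted p = 0.247). Mark4 was lower in the cortices of mIgG mice (-0.18, adjusted p = 0.0287), a call that was lost with the mouse as a block (adjusted p = 0.112). With the same block in IgLON5 mice Mark2 was no longer called (0.15, adjusted p = 0.0504) and Ttbk1 became called (0.18, adjusted p = 0.0391 against 0.134 without the block).

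In the hippocampus, no difference in the Mapt transcript between IgLON5 and mIgG mice was detectable. Mapt measured 502, 477, 524 and 469.7 CPM in the hippocampi of IgLON5 mice 8, 9, 16 and 17, and 539, 511, 532 and 472 CPM in mIgG mice 10, 15, 37 and 75. The groups overlapped over most of their range. The log2 fold change was -0.06 (SE 0.0572, CI -0.18 to 0.06, adjusted p = 0.597), so that the interval allows a level from 11.5% below to 4.17% above that of mIgG mice. Against PBS hippocampi (480 to 539 CPM) the log2 fold change was -0.04 (CI -0.15 to 0.07, adjusted p = 0.831).

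Of the kinases, only Gsk3b was called in IgLON5 against mIgG hippocampi. It was 1 of 10 members, where 7.01% of all tested genes were called in either direction and 2.78% were called lower, so the share of members was close to the background. GSK3β is a constitutively active kinase that phosphorylates tau at many sites. Gsk3b measured 203, 200.8, 244.5 and 207 CPM in IgLON5 mice 8, 9, 16 and 17, and 257, 252, 263 and 237 CPM in mIgG mice 10, 15, 37 and 75. The hippocampi of 3 IgLON5 mice lay below all mIgG hippocampi, and mouse 16 lay within the mIgG range. No member had hippocampi of the 2 groups that did not overlap, where 11.7% of all genes did. The log2 fold change was -0.24 (SE 0.0601, CI -0.36 to -0.11, adjusted p = 0.0166), a decrease by 15.2%.

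The call for Gsk3b rested on single libraries and on the mIgG group. It was lost without mIgG mouse 10 (adjusted p = 0.0559), mIgG mouse 37 (0.0764), IgLON5 mouse 8 (0.0742) or IgLON5 mouse 9 (0.0711), with the log2 fold change between -0.31 and -0.21 over the 8 leave-one-out fits. With the tissue composition score as a covariate it was -0.16 (adjusted p = 0.423), and without mIgG mice 10 and 37 together, a choice made after the data were seen, it was -0.19 (adjusted p = 0.311).

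PBS hippocampi spanned the whole range of the mIgG hippocampi. Gsk3b measured 218, 247, 266, 224 and 245 CPM in PBS mice 14, 32, 33, 38 and 74, a range that held the IgLON5 mouse 16 and lay above the other 3 IgLON5 hippocampi. Against PBS the log2 fold change was -0.17 (CI -0.28 to -0.05, adjusted p = 0.111), and the mIgG hippocampi differed from PBS by 0.07 (CI -0.05 to 0.19, adjusted p = 0.627). The comparisons with PBS and with mIgG share the IgLON5 libraries and are not independent. Without IgLON5 mouse 16 the difference from PBS was called (-0.24, adjusted p = 0.00613), as it was without PBS mouse 14 (-0.20, adjusted p = 0.0437) or PBS mouse 38 (-0.20, adjusted p = 0.0412). These were the only 3 of the 9 leave-one-out fits with a call. Over all 9 the log2 fold change ran from -0.24 to -0.13, with edgeR adjusted p values up to 0.340.

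**Figure D3:**
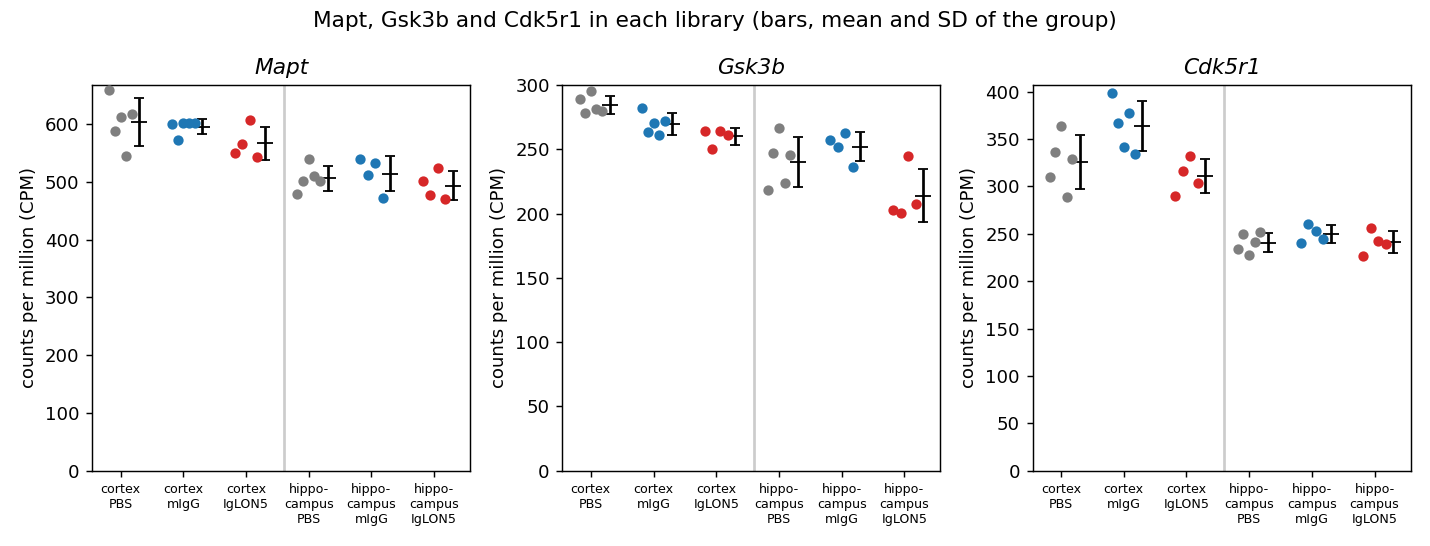
CPM of Mapt, Gsk3b and Cdk5r1 in each library by tissue and treatment on axes that start at 0, with the mean and SD of each group as bars. For Gsk3b, 3 of 4 IgLON5 hippocampi lie below the other hippocampi, and for Cdk5r1 the IgLON5 cortices lie below the mIgG cortices but within the range of the PBS cortices.

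The composition score varied beside Gsk3b. The mIgG hippocampi of mice 10 and 37, with the highest scores, measured 257 and 263 CPM, and the IgLON5 hippocampus of mouse 9, with the lowest score in its group (-1.69), measured 200.8 CPM. The PBS hippocampus of mouse 74, with nearly as low a score (-1.67), measured 245 CPM. IgLON5 mouse 16 and mIgG mouse 75, both at -0.71, measured 244.5 and 237 CPM, and PBS mouse 33, at -0.87, had the highest value of all hippocampi (266 CPM). Leaving mIgG mice 10 and 37 aside, Gsk3b ran from 237 to 252 CPM in 2 mIgG, from 200.8 to 244.5 CPM in 4 IgLON5 and from 218 to 266 CPM in 5 PBS libraries. Microglial markers moved with the IgLON5 group too: 7 of 8 rose against mIgG hippocampi (median log2 fold change 0.80), with a summed level of 493 to 901 CPM against 333 to 386 CPM. Markers of B and plasma cells rose in 5 of 5 tested genes, their summed level being 6.36 to 88.0 CPM against 0.809 to 1.79 CPM, and no gene of either list was at 0 throughout a group. Neuronal markers had 0 of 11 called in the same comparison, with a median of -0.11 and a summed level of 7034 to 7401 CPM against 7484 to 8395 CPM. Oligodendrocyte markers had 0 of 8 called and a median of -0.36, with a summed level of 2265 to 3920 CPM against 2875 to 4751 CPM. Of 8 astrocyte markers Gfap alone was called (1.31), and their median was 0.02. Of 3 tested T cell markers Cd5 rose (2.16), and of 4 neutrophil and monocyte markers Ly6c2 rose (3.81). Hippocampal markers had 0 of 5 called and 5 of 5 estimates above 0 (median 0.70). Cortical markers had 1 of 6 estimates above 0 (median -0.48), and Tbr1 was called lower (-0.64, edgeR adjusted p = 0.0190). The part of these cell types and of regional content in the Gsk3b difference was not tested.

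**Figure D4:**
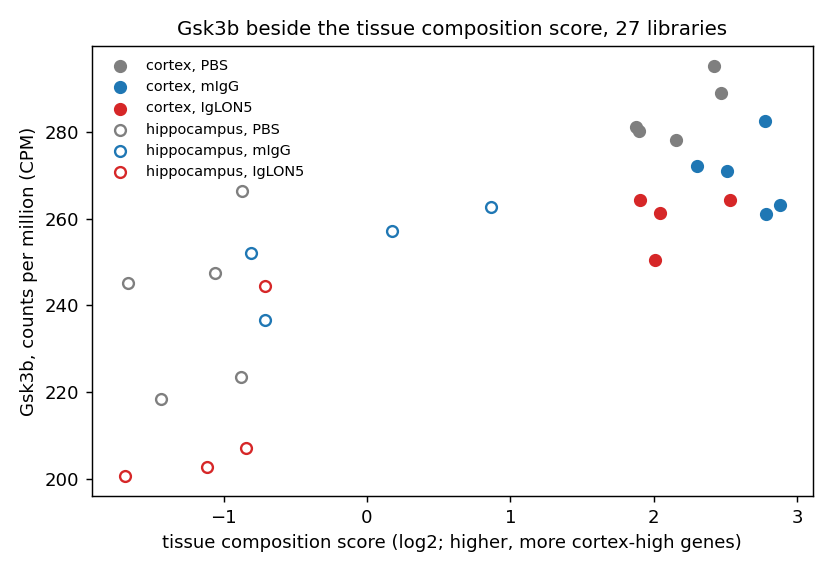
Gsk3b CPM against the tissue composition score in the 27 libraries, with cortex filled and hippocampus open. Among the hippocampi, mIgG mice 10 and 37 have the highest scores (0.18 and 0.87) and Gsk3b levels of 257 and 263 CPM.

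For the other 8 kinase genes, no difference between IgLON5 and mIgG hippocampi was detectable, and the intervals bound what could have been missed. Point estimates lay between -0.09 for Mark1 (CI -0.24 to 0.06) and 0.04 for Mark2 (CI -0.07 to 0.16). The GSK3 paralog Gsk3a was at -0.04 (CI -0.16 to 0.07) and Cdk5 at -0.05 (CI -0.15 to 0.05), with Cdk5r1 at -0.05 (CI -0.18 to 0.08). The narrowest interval was that of Dyrk1a (-0.09 to 0.08) and the widest that of Ttbk1 (-0.20 to 0.16). Estimates were negative for 9 of 10 members, with a median of -0.05 against 0.00 over all genes, but with the composition score as a covariate 5 of these (Mapt, Gsk3a, Mark1, Ttbk1 and Dyrk1a) were positive.

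Against PBS hippocampi, 0 of 10 members were called (background 4.29%), with 5 estimates above and 5 below 0, and 1 member (Gsk3b) had an unadjusted p under 0.05 where 15.3% of all genes did. DESeq2 likewise called 0 members there. Cdk5 was at 0.05 (CI -0.04 to 0.15) and Dyrk1a at -0.08 (CI -0.16 to 0.01). Between mIgG and PBS hippocampi 0 members were called (background 0.192%), also with DESeq2, and Cdk5 alone of the members, against 14.0% of all genes, had an unadjusted p under 0.05 (0.11, CI 0.01 to 0.20, adjusted p = 0.295).

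**Figure D5:**
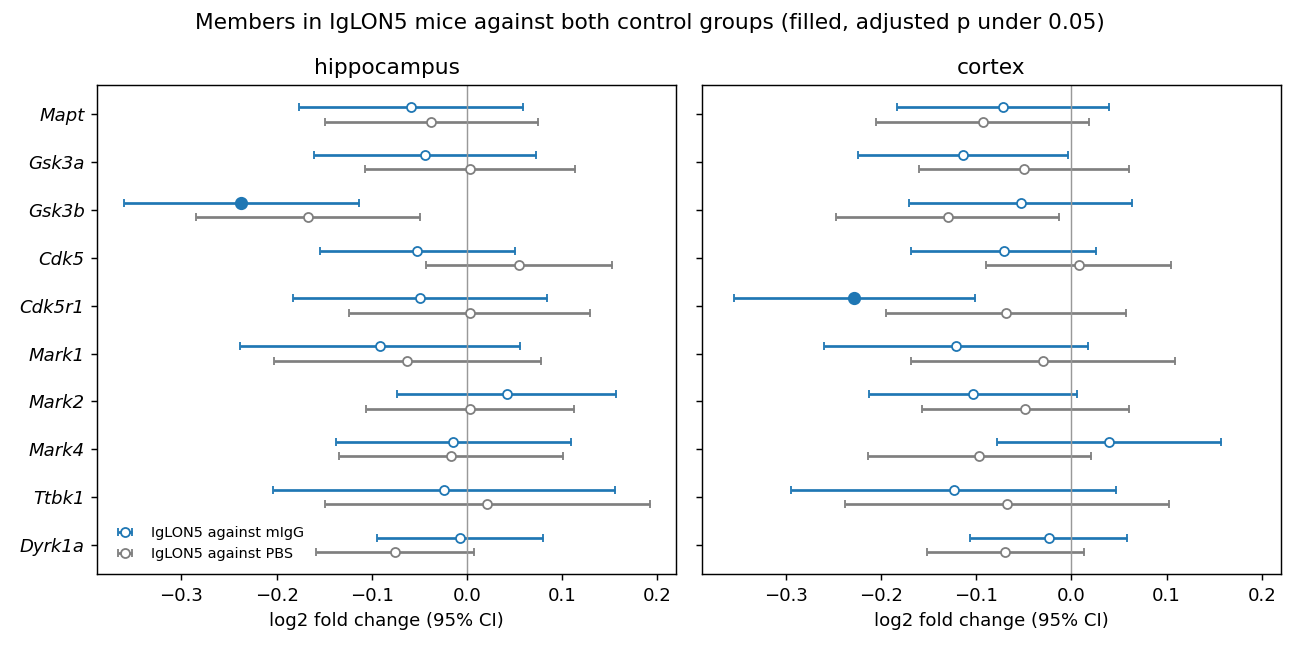
Log2 fold changes with 95% confidence intervals of the 10 members in IgLON5 mice against mIgG (blue) and PBS (gray), in hippocampus and cortex, with filled points where adjusted p was under 0.05. The filled points are Gsk3b in hippocampus (-0.24) and Cdk5r1 in cortex (-0.23), both against mIgG.

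In the cortex, Cdk5r1 was the member called in IgLON5 against mIgG mice. It was 1 of 10, where 3.46% of all genes were called in either direction and 0.449% were called lower. Cdk5r1 measured 290.1, 316, 332 and 303 CPM in the cortices of IgLON5 mice 8, 9, 16 and 17, and 398, 367, 342, 377 and 334 CPM in mIgG mice 10, 11, 15, 37 and 75. All IgLON5 cortices lay below all mIgG cortices, with 332 and 334 CPM at the boundary, and 6.35% of all genes had groups that did not overlap. The log2 fold change was -0.23 (SE 0.0616, CI -0.35 to -0.10, adjusted p = 0.0348), a decrease by 14.6%.

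PBS cortices (288 to 364 CPM for Cdk5r1) overlapped the IgLON5 cortices, and the log2 fold change against PBS was -0.07 (CI -0.20 to 0.06, adjusted p = 0.845). The mIgG cortices were above PBS by 0.16 (CI 0.04 to 0.28), with an unadjusted p of 0.0109 and an adjusted p of 0.459. Leaving out any of mIgG mice 10, 11 or 37 or IgLON5 mice 8, 9 or 17 ended the call (adjusted p from 0.0611 to 0.194), and the log2 fold change ran from -0.26 to -0.19 over the 9 leave-one-out fits. The composition score had a median of 2.78 in mIgG cortices against 2.03 in IgLON5 and 2.16 in PBS cortices, and with the score as a covariate Cdk5r1 was at -0.21 (adjusted p = 0.111).

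Mapt measured 549.9, 565, 607 and 544 CPM in IgLON5 cortices, and 572 to 603 CPM in mIgG cortices. The log2 fold change was -0.07 (CI -0.18 to 0.04, adjusted p = 0.573) against mIgG and -0.09 (CI -0.20 to 0.02, adjusted p = 0.671) against PBS. Gsk3b measured 264, 250.5, 264 and 261 CPM in IgLON5 cortices and 278 to 295 CPM in PBS cortices, groups that did not overlap, where 4.4% of all genes had groups that did not overlap in that comparison. Its difference of -0.13 (CI -0.25 to -0.01) had an unadjusted p of 0.0313 and an adjusted p of 0.432. Against PBS cortices 0 members were called (background 3.05%) by edgeR or DESeq2, and Gsk3b was the member with an unadjusted p under 0.05, where 9.26% of all genes had one. Against mIgG cortices 2 members had an unadjusted p under 0.05, where 15.4% of all genes had one. They were Cdk5r1 and Gsk3a (-0.11, CI -0.22 to -0.0036, edgeR adjusted p = 0.305). Estimates were negative for 9 of 10 members in IgLON5 cortices against either control, with medians of -0.09 against mIgG and -0.07 against PBS, where all genes had -0.01 and -0.02. Neuronal markers had 0 of 11 called in both comparisons, with 0 of 11 estimates above 0 against mIgG (median -0.11) and 2 of 11 against PBS (median -0.07). Their summed level was 8100 to 9421 CPM in IgLON5, 9160 to 9991 CPM in mIgG and 7861 to 9989 CPM in PBS cortices. Microglial markers rose in 3 of 8 genes against mIgG and 4 of 8 against PBS cortices, and markers of B and plasma cells in 3 and 2 of 5. Of the astrocyte markers Gfap alone was called, at 1.46 against mIgG and 1.39 against PBS. Oligodendrocyte markers had 0 of 8 called, with a median of -0.09 against mIgG and of -0.37 against PBS, where 0 of 8 estimates were above 0. Of 4 neutrophil and monocyte markers 2 rose against either control, and 1 of 3 tested T cell markers did. The regional markers moved too: 0 of 6 cortical markers had an estimate above 0 against mIgG (median -0.33) or PBS (median -0.15), and Rorb was called lower against mIgG (-0.51, adjusted p = 0.0229). The summed level of the cortical markers was 445 to 649 CPM in IgLON5, 554 to 729.7 CPM in mIgG and 476 to 635 CPM in PBS cortices. The part of these cell types and of regional content in the Cdk5r1 difference and in the members' estimates was not tested. Between mIgG and PBS cortices 0 members and 0 of all 20271 genes were called by edgeR (background 0%), 0 members by DESeq2, while 8.14% of genes and 2 members, Cdk5r1 and Mark4 (-0.14, CI -0.25 to -0.03), had an unadjusted p under 0.05.

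Whether the effect of IgLON5 AABs differed between hippocampus and cortex was tested as an interaction. Against mIgG, 0 of 10 members and 0 of all genes were called by edgeR (background 0%), so neither Gsk3b nor Cdk5r1 was shown to respond in one tissue only. The difference in log2 fold change, hippocampus minus cortex, was -0.18 for Gsk3b (CI -0.35 to -0.01, unadjusted p = 0.0353, adjusted p = 0.426) and 0.18 for Cdk5r1 (CI -0.0048 to 0.36, adjusted p = 0.484). Against PBS, 0 members and 1 gene of all were called (background 0.00493%), with Gsk3b at -0.04 (CI -0.20 to 0.13). At an unadjusted p under 0.05 stood 1 member against mIgG and 0 against PBS, where 10.6% and 3.32% of all genes did, and DESeq2 called 0 members in both.

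Other kinases that can phosphorylate tau were read beside the members, from a list of 27 genes that were all tested. In IgLON5 against mIgG hippocampi 2 were called higher and 5 lower, with a median log2 fold change of -0.04, where 7.01% of all genes were called in either direction and 2.78% lower. Syk, an immune receptor kinase that microglia and B cells express, rose by 1.13 (SE 0.207, adjusted p = 0.000902), and Camk2b, a calcium-dependent kinase of synapses, rose by 0.39 (SE 0.108, adjusted p = 0.0273). The largest decreases were those of Prkaa2, the AMPK catalytic subunit (-0.54, adjusted p = 0.00312), Ttbk2, the paralog of Ttbk1 (-0.45, adjusted p = 0.000877), and Mapk8, which encodes JNK1 (-0.42, adjusted p = 0.00148). Against PBS hippocampi, where 4.29% of all genes were called, 2 were called higher and 1 lower, among them Syk (1.15, adjusted p = 0.000234) and Ttbk2 (-0.29, adjusted p = 0.0274).

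Phosphatases and their regulators, which remove phosphate from tau, showed 0 of 20 called in IgLON5 hippocampi against either control (background 7.01% against mIgG and 4.29% against PBS, for the lists that follow too), with medians of -0.06 against mIgG and -0.01 against PBS. Regulators of the tau kinases showed 0 of 17 called against mIgG, and 1 against PBS, Taok1 (-0.24, adjusted p = 0.0407), whose kinase activates MARK. Of 18 tubulins and other microtubule proteins, 0 were called higher and 4 lower against mIgG, among them the tubulin-sequestering Stmn1 (-0.55, adjusted p = 0.0180), the neuronal tubulin Tubb3 (-0.34, adjusted p = 0.0269) and Dclk1 (-0.33, adjusted p = 0.0104), and 0 were called against PBS. Of 18 tested genes for tau turnover and modification, Lgmn, a lysosomal protease that cleaves tau, was the only one called in IgLON5 hippocampi, at 0.42 against mIgG (adjusted p = 0.00325) and 0.64 against PBS (adjusted p = 6.42e-06).

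In the cortex, where 3.46% of all genes were called against mIgG and 3.05% against PBS, the lists held 1 called kinase (Syk, 1.21 against mIgG and 1.08 against PBS), 1 phosphatase subunit (Ppp2cb, -0.18 against mIgG) and 1 gene of tau turnover against each control (Sqstm1, -0.19 against mIgG, and Lgmn, 0.36 against PBS). These genes were named after their values were seen.

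Between the tissues of PBS mice, each of the 5 pathway lists held genes called in both directions, where 26.7% of all genes were called in either direction and 14.1% higher in cortex. The 6 of 17 kinase regulators and 6 of 18 turnover genes called were close to that background. Of the other tau kinases 12 were higher and 2 lower in cortex, led by the other CDK5 activator, Cdk5r2 (0.88, adjusted p = 8.13e-07), Camkk2 (0.80) and Prkaa2 (0.79), with Camk2b (-0.58) and Fyn (-0.15) lower. Of the phosphatases and their regulators 9 were higher, led by Ppme1 (0.52), Ppp2r2b (0.49) and Ppp2r2c (0.38), and Ppp3ca was lower (-0.40). Of the genes listed as kinase regulators 4 were higher, among them Rcan1 (0.46), which encodes a regulator of the phosphatase calcineurin, and the GSK3-binding Frat1 (-0.45) and Frat2 (-0.58) were lower. Of the microtubule genes 11 were higher, led by Stmn1 (1.09), Dcx (0.60) and Stmn4 (0.58), and 3 were lower (Tubb2b, -0.50; Map4, -0.22; Map1b, -0.17). Of the turnover genes 4 were higher and 2 lower, among them Lgmn (0.23) and Sqstm1 (0.17) higher and Fkbp5 (-0.69) lower. The median log2 fold changes of these lists lay between 0.03 for turnover genes and 0.36 for microtubule genes, against 0.25 for the members and -0.01 for all genes.

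The genes whose levels followed Mapt most closely were ranked by Pearson r of log2 CPM over the 27 libraries among 10776 genes. Among the 5 closest were Rab6b (r = 0.960), Myh10 (0.954), Ehbp1 (0.951) and Pacsin1 (0.950). Of the members, Mark1 (0.907), Gsk3a (0.884), Mark2 (0.838), Gsk3b (0.831), Cdk5r1 (0.826) and Ttbk1 (0.817) followed Mapt, Dyrk1a (0.543) and Cdk5 (0.342) less so, and Mark4 went the other way (-0.285). The median r of all genes was 0.0576 and the 90th percentile 0.790, and Mark1 ranked 135, Gsk3b 754 and Ttbk1 860 of the 10776 genes. These values are a description: the libraries fall into 2 tissues, share mice, and differ in composition.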

How the data were processed

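The values used are the raw read counts of each gene that the authors deposited as 1 table for the series. Reads were aligned with STAR (1.4.0 in the submitters' processing notes) to GRCm38, from paired-end libraries of a stranded kit, per the labels and the study's methods. The counting program, annotation and strand setting are not given in the sources used here. Of 55487 gene IDs, 55227 matched GENCODE M21 without the version. A gene was kept if 4 or more libraries had 10 or more counts (20271 genes). The quasi-likelihood test of edgeR 4.0.16 (R 4.3.3, TMM factors, glmQLFit and glmQLFTest) used 1 fit of all 27 libraries with 6 groups of tissue by treatment, and p-values were adjusted over all 20271 genes by the Benjamini-Hochberg method. A call is an adjusted p under 0.05. Intervals are 95%. Log2 CPM used a prior count of 1, RPKM the merged exon length. The labels do not say more of separate mice than the number in each title, and p-values measure the spread between these libraries. Library totals were 19385642 to 58550621 counts, and counting error was compared with the spread of each member in each group.

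Members and lists were chosen with earlier results of these data known. All 10 members were described. Of each list the text gives counts and, within the hippocampus and between PBS tissues, up to 3 called genes per direction with the largest absolute log2 fold change, and the 5 genes most correlated with Mapt. A few genes that this rule names are not reported here. Of the 183 list symbols, Oga had no row. Same-numbered libraries of 2 tissues correlated in their deviations from the group means with r from -0.05 to 0.44 over 13 mice (median 0.19, above 0.1 in 8), and the pairing comes from the numbers in the titles. The alternatives were DESeq2 1.42.0, RLE size factors, no count filter, a minimum of 10 counts in every library, a fit of the 2 groups alone, the composition score (genes with a mean log2 CPM above 3) as a covariate, mice 8 to 17, the mouse as a block, a fold above 2, and each library left out. Leaving out mIgG mice 10 and 37 together was added after seeing the data. The functions were tested on simulated data.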

Additional observations from a re-analysis of the deposited data

Results flagged for a closer look

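Of 60 combinations of a member and a group examined, 7 had a library that stood far from the others by Dixon's test at 95%, a test that flags about 1 in 20 groups by chance. Mouse 16 of the IgLON5 group accounted for 3 of them. Its hippocampus had 244.5 CPM of Gsk3b, the others of the group 200.8 to 207 CPM. Its cortex had 130.1 CPM of Mark2, the others 109 to 109.8 CPM, and 93.9 CPM of Dyrk1a, the others 84.6 to 86.0 CPM. Without that hippocampus Gsk3b was at -0.31 against mIgG, and without that cortex Mark2 became called against mIgG (-0.17, edgeR adjusted p = 0.0430).

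The cortex of mIgG mouse 11 had the lowest Mapt of its group, 572 CPM against 599 to 603 CPM in the others. The cortex of PBS mouse 14 had 132 CPM of Mark1 against 103 to 110.2 CPM. The hippocampus of PBS mouse 74 had 114.6 CPM of Gsk3a against 109.6 to 110.2 CPM, and the hippocampus of mIgG mouse 15 had 88.7 CPM of Dyrk1a against 84.3 to 84.9 CPM.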

How the results depend on the processing

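The 7 members higher in PBS cortex stayed 7 in number with DESeq2, with the mouse as a replicate block and in each of the 10 leave-one-out fits, and fell to 0 with a fold above 2. The block changed no member call in this comparison or in the interactions (7, 0 and 0 called). The single calls of the treatment comparisons were less stable. For IgLON5 against mIgG hippocampi the count of called members was 0 with only the groups compared, with the composition covariate, with only mice 8 to 17, without mIgG mice 10 and 37 and with a fold above 2, and 0 to 1 when each library was left out. For IgLON5 against PBS hippocampi it was 0 to 1 when each library was left out. For IgLON5 against mIgG cortices it was 0 with no count filter, with only the groups compared, with the composition covariate, with only mice 8 to 17 and with a fold above 2, and 0 to 2 when each library was left out. Where fewer libraries were fitted the error had fewer degrees of freedom, and otherwise the cause was not tested.

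Changes of sign all concerned members that were not called. Against mIgG hippocampi, the composition covariate gave 0.0376 for Mapt, 0.0389 for Gsk3a, 0.0478 for Mark1, 0.16 for Ttbk1 and 0.0128 for Dyrk1a. Leaving out mIgG mice 10 and 37 gave 0.0048 for Mapt, 0.0445 for Gsk3a and 0.0589 for Ttbk1, and only mice 8 to 17 gave 0.0017 for Gsk3a. Against PBS hippocampi, Gsk3a was -0.0015 with DESeq2, -0.0012 with RLE size factors, -0.0227 with no filter, -0.0022 with 10 counts in every library and -0.0050 with the covariate. In the same order of the first 4 settings Cdk5r1 was -0.0010, -0.00080, -0.0223 and -0.0022, and Mark2 -0.00016, -0.00040, -0.0214 and -0.0015, with -0.0017 under the covariate. Ttbk1 was -0.0038 with no filter. Gsk3b in mIgG against PBS hippocampi was -0.0196 with the covariate, and Dyrk1a in IgLON5 against mIgG cortices was 0.0010 with no filter. When each library was left out, log2 fold changes against mIgG hippocampi ran from -0.0834 to 0.0061 for Gsk3a, -0.0650 to 0.0139 for Mark4, -0.0668 to 0.0099 for Ttbk1 and -0.0419 to 0.0109 for Dyrk1a. Against PBS hippocampi they ran from -0.0115 to 0.0149 for Gsk3a, -0.0371 to 0.0313 for Cdk5r1, -0.0134 to 0.0118 for Mark2, -0.0754 to 0.0203 for Mark4 and -0.0217 to 0.0550 for Ttbk1. Against PBS cortices they ran from -0.0235 to 0.0261 for Cdk5, -0.10 to 0.0416 for Mark1 and -0.16 to 0.0065 for Ttbk1, and the interaction of Gsk3b against PBS from -0.11 to 0.0023. Leave-one-out values also lay on both sides of 0, within -0.11 to 0.09, for Mapt in mIgG against PBS cortices, for Mapt, Gsk3a, Mark1 and Mark4 in mIgG against PBS hippocampi, for Mapt, Cdk5, Mark1 and Dyrk1a in the interaction against mIgG and for Cdk5, Mark1 and Dyrk1a in that against PBS. Among the other values of the results in the text, 451 for single members and 144 counts kept their direction and side of the threshold. Counting error was at or above the spread between libraries in 3 of 60 combinations of a member and a group.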
